A study of Mus musculus with 21 samples.

Results

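The regions described here are places in the mouse genome that had a Foxa1 peak 48 hours after infection and a Foxa2 peak in established hepatocyte-like (iHep) cells, with no Foxa2 peak at 48 hours and no Foxa3 peak at either stage. They were chosen by pooling the 6 Foxa peak lists and merging peaks that overlapped by at least 1 bp. Of 29339 merged regions 1909 met the rule, which is 6.51% (95% Wilson interval 6.23% to 6.79%). They are called early Foxa1 regions below. A Foxa1 peak in iHep cells was neither required nor barred, and 964 of the regions held one while 945 did not.

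Peaks came from chromatin immunoprecipitation followed by sequencing (ChIP-seq) in cells of the C57BL/6 strain. Mouse embryonic fibroblasts were prepared from embryos at 13.5 days post coitum, and each culture received retroviruses for Hnf4a together with Foxa1, Foxa2 or Foxa3, so all groups carry added Hnf4a. The Foxa1 line (Foxa1 plus Hnf4a), the Foxa2 line (Foxa2 plus Hnf4a) and the Foxa3 line (Foxa3 plus Hnf4a) were each examined 48 hours after infection and as iHep cells, with antibodies to the line's own Foxa protein and to Hnf4a. Whether an iHep line grew from 1 clone is not stated in the labels, and peak lists cannot show cell identity. Each list comes from 1 library, so there is no replicate spread, no p-value is given, and depth is unknown. Every interval below covers counting error over regions alone, although regions of a library share their source and are not replicates.

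Foxa proteins are forkhead transcription factors with a winged-helix DNA-binding domain. They are known as pioneer factors, able to bind sites on nucleosomes and to open chromatin for other factors, and Foxa1 and Foxa2 act together in early liver development. Hnf4a is a nuclear receptor that maintains hepatocyte gene expression and often binds near Foxa proteins in liver.

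In the early Foxa1 regions the peaks of the different lists were centred close together. The median distance between the centres of the 48-hour Foxa1 peak and the iHep Foxa2 peak was 32.5 bp (quartiles 15.5 and 59 bp), and 1757 of 1909 pairs (92.04%, 90.7% to 93.2%) lay within 100 bp. In regions with an iHep Foxa1 peak the iHep Foxa1 and iHep Foxa2 centres were 27 bp apart in the median. A base common to all peaks of the region existed in 961 of these 964. More than 1 peak of a list was seen in 3 of the 1909 regions. The merged regions had a median width of 544 bp and ran from 330 to 1370 bp. The widest was chr1:163257264-163258633 (mm9 build) and held no Hnf4a peak.

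The rule is a yes or no on overlap, and few cases lay at its edge by position. The number of regions that met it also depended on list length, and was 940 with the upper 50% of each Foxa list. The smallest overlap of a 48-hour Foxa1 and an iHep Foxa2 peak inside the rule was 70 bp, at chr14:17529682-17530483. Just outside it, the nearest pair that did not overlap was 10 bp apart, at the 48-hour Foxa1 peak chr1:188404828-188405218. For the absence of early Foxa2, the closest region had a 48-hour Foxa2 peak 103 bp away, at chr6:38807346-38807854. The smallest overlap that kept a region out was 121 bp, at chr15:34954796-34955564. Few early Foxa1 regions were near misses, since 10 had a 48-hour Foxa2 peak within 500 bp and 30 (1.57%, 1.10% to 2.23%) within 1 kb, and the median distance was 88.5 kb. Within 1 kb lay a 48-hour Foxa3 peak for 12 regions and an iHep Foxa3 peak for 29.

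The early Foxa1 regions were set against the other regions with 48-hour Foxa1. Among the 3643 regions with 48-hour Foxa1 but neither 48-hour Foxa2 nor any Foxa3, 1909 (52.4%, 50.8% to 54.0%) held an iHep Foxa2 peak, which is the choice of members itself. An iHep Foxa1 peak, with or without iHep Foxa2, was held by 1079 of 3643 (29.6%, 28.2% to 31.1%). One without iHep Foxa2 was held by 115 of 3643 (3.16%, 2.64% to 3.78%). The iHep Foxa1 list is the shorter, with 3435 peaks against 10330 for iHep Foxa2. Where 48-hour Foxa2 was also present, 1551 of 2974 regions (52.2%, 50.4% to 53.9%) held iHep Foxa2. The iHep Foxa2 shares rest on lists that the rule uses, and all of these shares are given as a description. The early Foxa1 regions hold 28.2% of the 48-hour Foxa1 list and 18.5% of the iHep Foxa2 list.

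The peak scores used here are the authors' own, and each is expressed as a percentile, its place from lowest to highest as a percentage of the peaks of the same list, with tied scores at the middle of their tie. These scores are part of the choice of members and are given as a description. In the 48-hour Foxa1 list the early Foxa1 regions sat near the middle, with a median percentile of 45.8. In the iHep Foxa2 list they sat higher, with a median percentile of 69.0, and 805 of them (42.2%) fell in the top 25% of that list. Regions that had 48-hour Foxa2 as well ranked higher in the 48-hour Foxa1 list. Their median percentile was 86.1 with both proteins in iHep cells and 62.4 with iHep Foxa2 but no iHep Foxa1. The like medians for early Foxa1 regions were 56.9 and 36.0. Among all regions with 48-hour Foxa1, iHep Foxa2 and no Foxa3, 48-hour Foxa2 was missing from 79.8% in the lowest 25% of the 48-hour Foxa1 list and from 28.3% in the highest 25%. By the iHep Foxa2 score the corresponding shares were 62.1% and 49.8%. The rule uses all of these values, so nothing is read from their order. Whether a peak missing from a list reflects absent binding or signal below the authors' threshold cannot be told apart from these files.

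Regions with an iHep Foxa1 peak outranked those without one in both lists. In the 48-hour Foxa1 list the median percentiles were 56.9 (quartiles 34.3 and 76.2) with iHep Foxa1 and 36.0 (17.5 and 56.8) without. The iHep Foxa2 list gave a wider gap, with medians of 82.1 (64.3 and 92.2) and 53.5 (28.4 and 72.5). The distributions overlapped in both lists. From the lowest to the highest scoring 25% of early Foxa1 regions by iHep Foxa2 score, the share with an iHep Foxa1 peak went from 22.8% to 38.4%, 59.5% and 81.3%. By 48-hour Foxa1 score it went from 30.5% to 44.0%, 53.2% and 74.2%. Across regions, the 48-hour Foxa1 and iHep Foxa2 scores were only loosely related, with a Spearman rho of 0.30 over all 1909. The rho was 0.25 over 964 regions with iHep Foxa1 and 0.13 over 945 without. The 2 iHep scores of a region were closer, with a rho of 0.45 over the 964. These are correlations across regions of single libraries, all of which share the local sequence and its mappability.

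**Figure D1:**
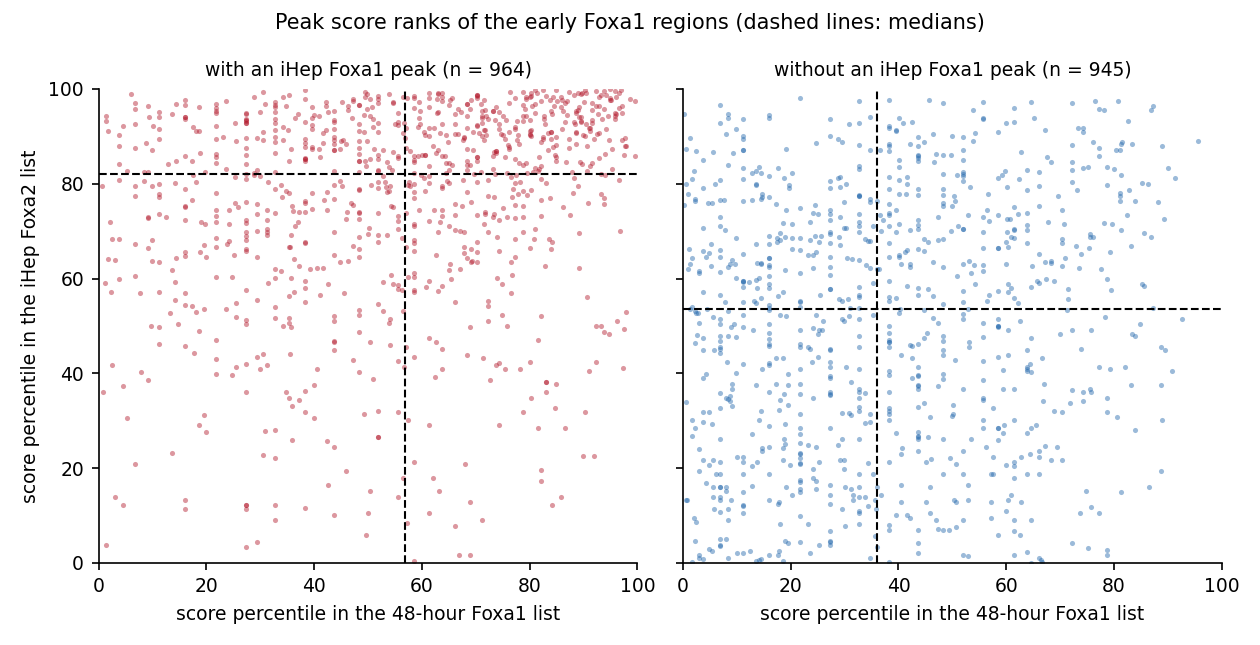
Each point is an early Foxa1 region, placed by its score percentile in the 48-hour Foxa1 list (horizontal axis) and in the iHep Foxa2 list (vertical axis), with the 964 regions that have an iHep Foxa1 peak on the left and the 945 without on the right. Dashed lines mark the medians, 56.9 and 82.1 on the left and 36.0 and 53.5 on the right. Columns of points come from tied scores.

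Widths followed the same order. Regions with iHep Foxa1 had a median width of 576.5 bp (quartiles 522 and 637 bp), and those without had 508 bp (448 and 572 bp). The difference of 68.5 bp was 43 bp with the upper 50% of each Foxa list and 33 bp with lists of equal length. The single iHep Foxa2 peak was also wider in the first group (median 552 against 465 bp), as was the 48-hour Foxa1 peak (441 against 399 bp). A merged region spans all of its Foxa peaks, so an added iHep Foxa1 peak can widen it but never narrow it. Scores were higher in the first group too. The part of the added peak and of the scores in the width difference was not tested.

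The iHep Foxa1 peak was not used in choosing the regions, so its frequency can be set against other regions with iHep Foxa2 and no Foxa3. Over all 10037 regions with iHep Foxa2 and no Foxa3, the early Foxa1 regions included, 28.2% held an iHep Foxa1 peak. Over all merged Foxa regions 11.7% did. Early Foxa1 regions held one in 50.5% (48.3% to 52.7%). Regions with both Foxa1 and Foxa2 at 48 hours held one in 56.8% (54.3% to 59.2%), a difference of -6.30 percentage points for the early Foxa1 regions (95% Newcombe interval -9.62 to -2.96). Far fewer had it where Foxa1 was absent at 48 hours. It was present in 53 of 441 regions with 48-hour Foxa2 alone (12.02%, 9.31% to 15.4%) and in 929 of 6136 regions with no 48-hour Foxa peak (15.1%, 14.3% to 16.1%). A region bound early by Foxa1 but not Foxa2 thus held iHep Foxa1 more often, by 38.5 points (34.4 to 42.0), than a region bound early by Foxa2 but not Foxa1. The shares depend on list length. With each Foxa list cut to its 3435 highest scores they were 78.9% (75.9% to 81.6%) for early Foxa1 regions, 80.0% with both proteins at 48 hours, 38.02% with 48-hour Foxa2 alone and 42.1% with no 48-hour Foxa. The difference from regions with both was then -1.11 points (-5.28 to 3.13), an interval that includes 0, while the differences from the sets without 48-hour Foxa1 were 40.8 (31.5 to 49.4) and 36.8 points (33.0 to 40.3).

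This contrast held at each level of the iHep Foxa2 score. In the lowest 25% of the iHep Foxa2 list 17.2% of early Foxa1 regions held iHep Foxa1, against 4.07% with 48-hour Foxa2 alone and 5.37% with no 48-hour Foxa. In the highest 25% the shares were 73.5% (592 of 805), 32.8% (21 of 64) and 43.8% (361 of 824). All 8 differences, over 4 score classes of the list and both sets without 48-hour Foxa1, had intervals above 0, and the smallest was 11.8 points (7.55 to 17.0). Against regions with both proteins at 48 hours the early Foxa1 regions differed by 8.90 points (1.28 to 16.1) in the second lowest class and by -7.08 points (-11.1 to -2.98) in the highest, while in the lowest and the third the intervals included 0. Both Foxa1 lists come from the same line and antibody target, so the line, the antibody and the Foxa1 protein cannot be told apart here.

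**Figure D2:**
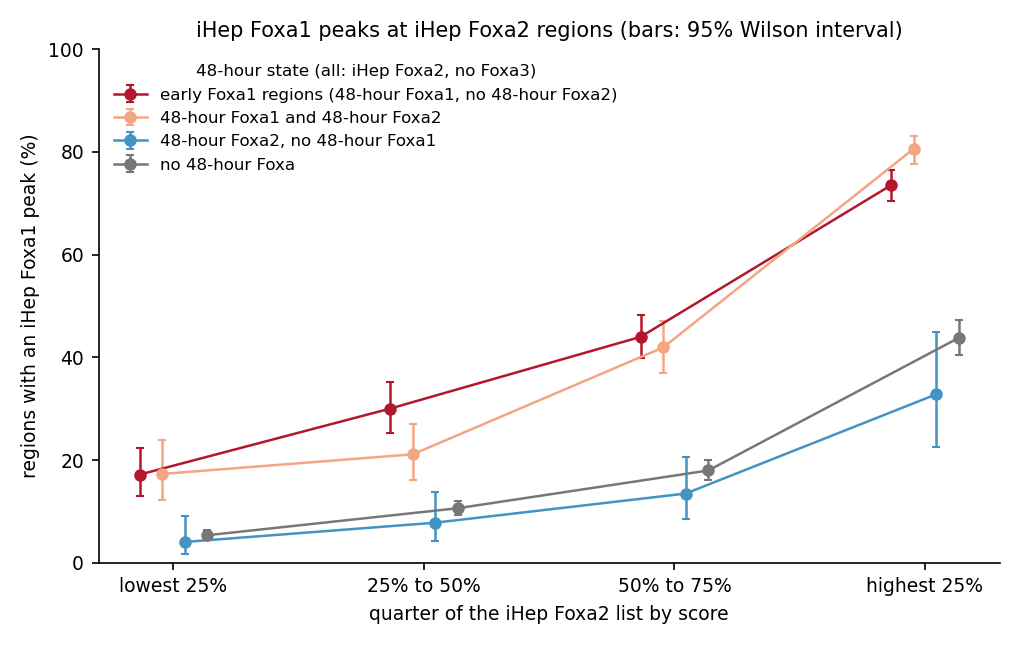
The vertical axis gives the percentage of regions with an iHep Foxa1 peak, and the horizontal axis the class of iHep Foxa2 score, each class being 25% of the list from low to high. Lines are the early Foxa1 regions and 3 other sets of regions with iHep Foxa2 and no Foxa3, and bars are 95% Wilson intervals. Both sets with a 48-hour Foxa1 peak lie above both sets without one in all 4 classes, reaching 73.5% and 80.6% in the highest.

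Hnf4a was not part of the rule. At 48 hours its peaks were rare in the early Foxa1 regions and in all merged Foxa regions alike. The Foxa1 line's 48-hour Hnf4a list had a peak in 10 of 1909 regions (0.524%, 0.285% to 0.962%), beside 0.31% over all merged Foxa regions, and 6 of the 10 regions held iHep Foxa1. The other lines gave 0 of 1909 each (upper bound 0.201%), beside 0.266% of all merged regions with Foxa2-line and 0.16% with Foxa3-line Hnf4a. Any 48-hour Hnf4a peak was thus found in the same 10 regions, beside 0.494% of all merged regions. The early Hnf4a lists were short, with 370 to 453 peaks, and their median peak widths were 87 to 93.5 bp. Between 45.9% and 52.4% of their peaks had a neighbour of their own list within 500 bp. The part of these traits in the low shares was not tested.

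In iHep cells Hnf4a was found chiefly at the early Foxa1 regions that also held iHep Foxa1. The Foxa1 line's iHep Hnf4a list had a peak in 88 of the 964 regions with iHep Foxa1 (9.13%, 7.47% to 11.1%) and in 13 of the 945 without (1.38%, 0.806% to 2.34%), a difference of 7.75 points (5.83 to 9.82). Over all merged Foxa regions the share was 2.02%. In the Foxa2 line, whose Foxa2 peaks are present in every one of these regions, Hnf4a peaks lay in 98 of 964 (10.2%, 8.41% to 12.2%) and in 24 of 945 (2.54%, 1.71% to 3.75%), a difference of 7.63 points (5.50 to 9.85), beside 2.76% of all merged regions. In the Foxa3 line they lay in 36 of 964 (3.73%, 2.71% to 5.13%) and in 9 of 945 (0.952%, 0.502% to 1.80%), a difference of 2.78 points (1.45 to 4.25), beside 3.8% of all merged regions. Regions with iHep Foxa1 thus stood above all merged regions in Foxa1-line and Foxa2-line Hnf4a, and their interval included that level for the Foxa3 line, where the merged total also holds the Foxa3 sites. Regions without it were below that level for Foxa3-line Hnf4a, and their intervals included it for the other lines. The Foxa1-line Hnf4a and iHep Foxa1 libraries share a title code, while Foxa2-line Hnf4a carries another.

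The regions with iHep Foxa1 have higher iHep Foxa2 scores, so the shares were also compared within classes of that score, in which scores still differed. When the early Foxa1 regions were split at their median iHep Foxa2 score into an upper and a lower 50%, the median percentiles with and without iHep Foxa1 were 89.0 and 81.0 in the upper part and 51.0 and 39.0 in the lower. Foxa1-line Hnf4a was found in 64 of 672 regions with iHep Foxa1 and in 1 of 282 without in the upper part, a difference of 9.17 points (6.60 to 11.6). In the lower part it was found in 24 of 292 and in 12 of 663, a difference of 6.41 points (3.46 to 10.2). Foxa2-line Hnf4a differed by 9.54 points (6.36 to 12.3) in the upper and 4.67 points (1.71 to 8.42) in the lower part, and Foxa3-line Hnf4a by 3.57 (1.80 to 5.26) and 2.75 points (0.634 to 5.76). Among the 89 regions without iHep Foxa1 in the highest scoring 25% by iHep Foxa2, 0 held an iHep Hnf4a peak of any line (upper bound 4.14%). In the same class 55 of 388 regions with iHep Foxa1 did (14.2%, 11.1% to 18.0%). In 4 score classes of 25% each, all 12 differences by class and line were above 0, and the intervals of 2 of them, both for Foxa3-line Hnf4a, included 0. The part of the remaining score difference was not tested. A split by both scores gave the same direction in all 12 cases, formed by 4 score classes and 3 lines, with intervals that included 0 in 2 of them.

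**Figure D3:**
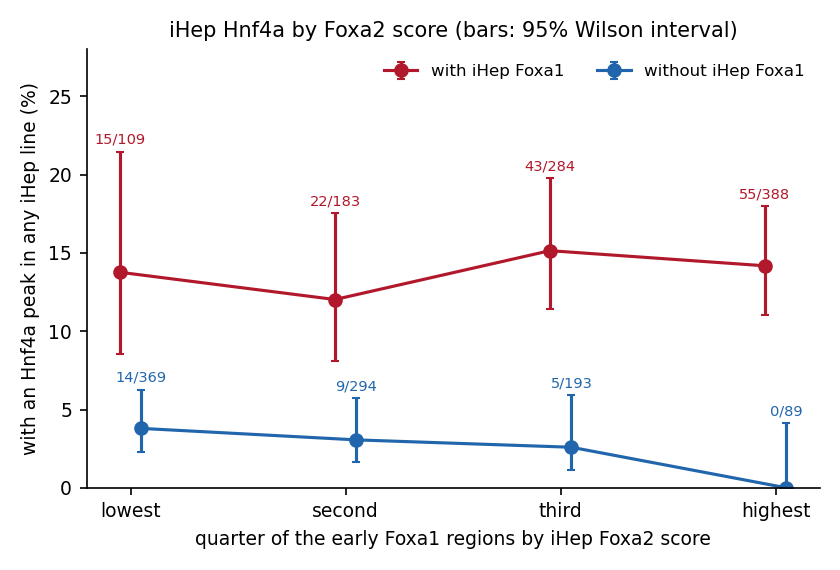
The vertical axis gives the percentage of early Foxa1 regions with an Hnf4a peak in at least 1 iHep line, and the horizontal axis their class by iHep Foxa2 score, 25% of the regions in each, with counts above the 95% Wilson intervals. Regions with iHep Foxa1 stayed between 12.02% and 15.1%, while those without ran from 3.79% in the lowest class to 0 of 89 in the highest.

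Pooled over lines, 163 of the 1909 early Foxa1 regions (8.54%, 7.37% to 9.88%) held an iHep Hnf4a peak, beside 6.12% of all merged regions. They were 135 of the regions with iHep Foxa1 (14.0%, 11.96% to 16.3%) and 28 of those without (2.96%, 2.06% to 4.25%). Lines shared many of these sites. All 3 lines had Hnf4a in 28 regions (1.47%, beside 0.624% of all merged regions). The Foxa1 and Foxa2 lines alone had it in 43 (2.25%, beside 0.671%). The Foxa1 line by itself had Hnf4a in 29 regions (1.52%, beside 0.552%), and every one of the 29 held iHep Foxa1. The Foxa2 line by itself had it in 46 regions (2.41%, beside 1.09%). Of these 46, 36 held iHep Foxa1, although the Foxa1 protein was not added to that line. Among regions with iHep Foxa1, those with Hnf4a had a median percentile of 70.7 in the iHep Foxa1 list (quartiles 49.0 and 84.7) against 61.0 (36.0 and 80.7) for the rest. The corresponding medians for 48-hour Foxa1 were 62.6 and 55.6, while iHep Foxa2 gave 82.1 and 82.2. The ranges overlapped widely in all 3 lists.

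The same order appeared in the regions most like these. Where 48-hour Foxa2 was also present, Foxa1-line Hnf4a lay in 5.56% (4.23% to 7.28%) of 881 regions with iHep Foxa1 and in 1.94% (1.14% to 3.29%) of 670 without. Where no Foxa peak was seen at 48 hours it lay in 7.43% (5.91% to 9.29%) of 929 and in 1.90% (1.56% to 2.31%) of 5207. Where 48-hour Foxa2 stood without Foxa1 it lay in 3 of 53 (5.66%, 1.94% to 15.4%) and in 14 of 388 (3.61%, 2.161% to 5.96%), with overlapping intervals. Among 48-hour Foxa1 regions that had no iHep Foxa2, it lay in 7 of 115 with iHep Foxa1 (6.09%, 2.98% to 12.03%) and in 12 of 1619 with no later Foxa peak (0.741%, 0.425% to 1.29%). Foxa1-line Hnf4a was therefore more frequent with an iHep Foxa1 peak in each of these sets, beyond counting error in all but the one of 53 and 388 regions. The early Foxa1 regions with iHep Foxa1 exceeded those that also had 48-hour Foxa2 by 3.57 points (1.18 to 5.95) in Foxa1-line Hnf4a, although their Foxa scores were lower. From the lowest to the highest 25% of the iHep Foxa2 list the difference was 4.55 (-8.34 to 15.1), -1.67 (-14.1 to 7.10), 4.41 (-1.61 to 9.90) and 3.76 points (0.886 to 6.75), so the interval lay above 0 in the highest class alone. For Foxa2-line and Foxa3-line Hnf4a the differences were 1.88 points (-0.784 to 4.52) and 0.556 points (-1.16 to 2.25), and both intervals include 0. Against regions gained without any 48-hour Foxa the difference in Foxa1-line Hnf4a was 1.70 points (-0.797 to 4.20).

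**Figure D4:**
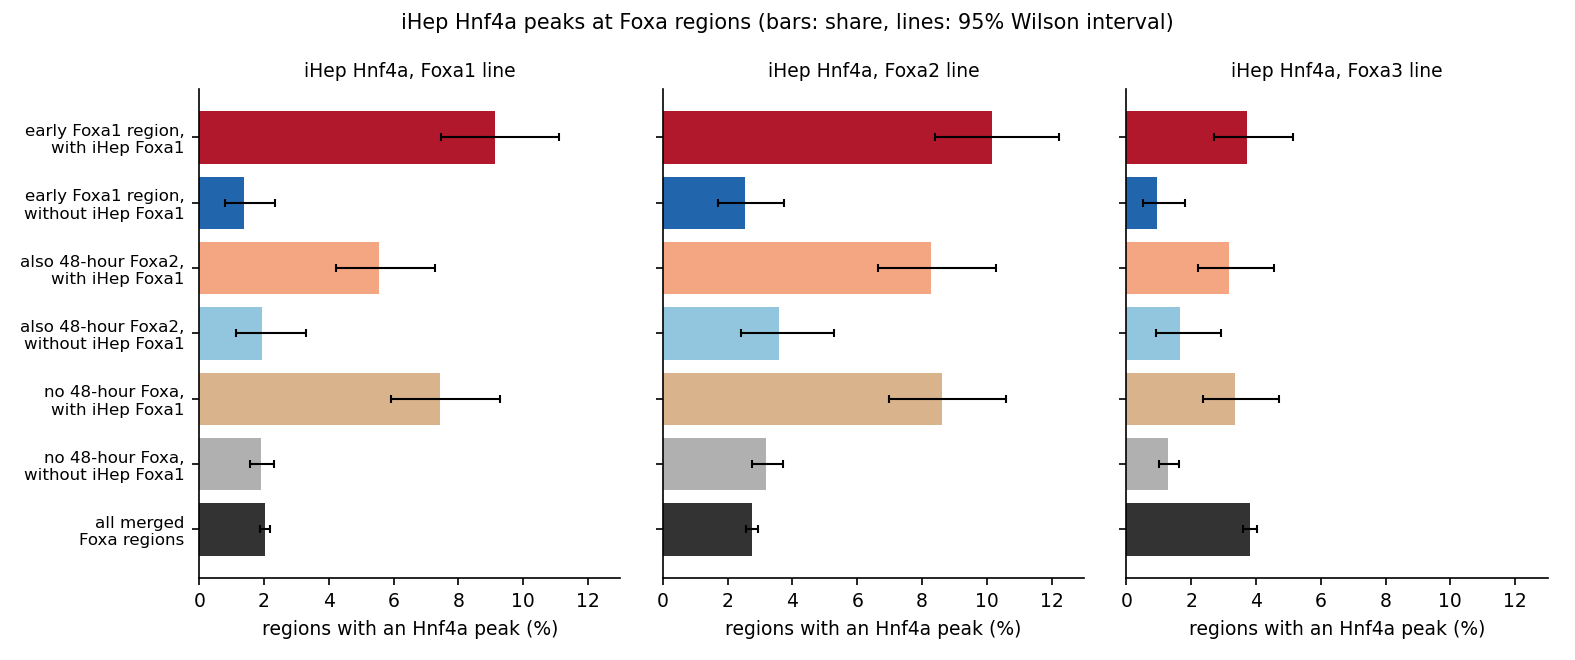
The horizontal axis gives the percentage of regions holding an iHep Hnf4a peak, in 1 panel per line (Foxa1, Foxa2 and Foxa3 from left to right), with 95% Wilson intervals, for the early Foxa1 regions and for comparison sets, all without Foxa3 except the merged total. Within each history the set with iHep Foxa1 lies above the set without, 9.13% against 1.38% for early Foxa1 regions in the Foxa1 line.

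Where Hnf4a sat within the regions differed between lines. Foxa1-line and Foxa2-line Hnf4a lay on the Foxa peak. The centres were a median of 72 bp (quartiles 25 and 126 bp) and 54.8 bp (24.5 and 99.5 bp) from the iHep Foxa2 centre, and 68 of 101 and 93 of 122 were within 100 bp. Peaks of the Foxa3 line lay to the side, at a median of 254.5 bp (171 and 310 bp), with 5 of 51 (9.80%, 4.26% to 20.98%) within 100 bp. In 6 of the 45 regions concerned a pair of Foxa3-line peaks flanked the Foxa2 centre, 1 on each side. The same displacement was present at the other regions with iHep Foxa2 and no Foxa3, where 16 of 169 Foxa3-line Hnf4a peaks (9.47%, 5.91% to 14.8%) were within 100 bp. In early Foxa1 regions that held both, Foxa1-line and Foxa2-line Hnf4a centres were 40 bp apart in the median over 71 regions, and Foxa2-line and Foxa3-line centres 230 bp apart over 33. In the iHep Foxa3-line lists many peaks also had a neighbour of their own list within 500 bp, 58.2% for Foxa3 and 30.9% for Hnf4a, against 0.873% to 2.86% in the iHep lists of the other lines. The part of such paired peaks in the displacement was not tested.

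**Figure D5:**
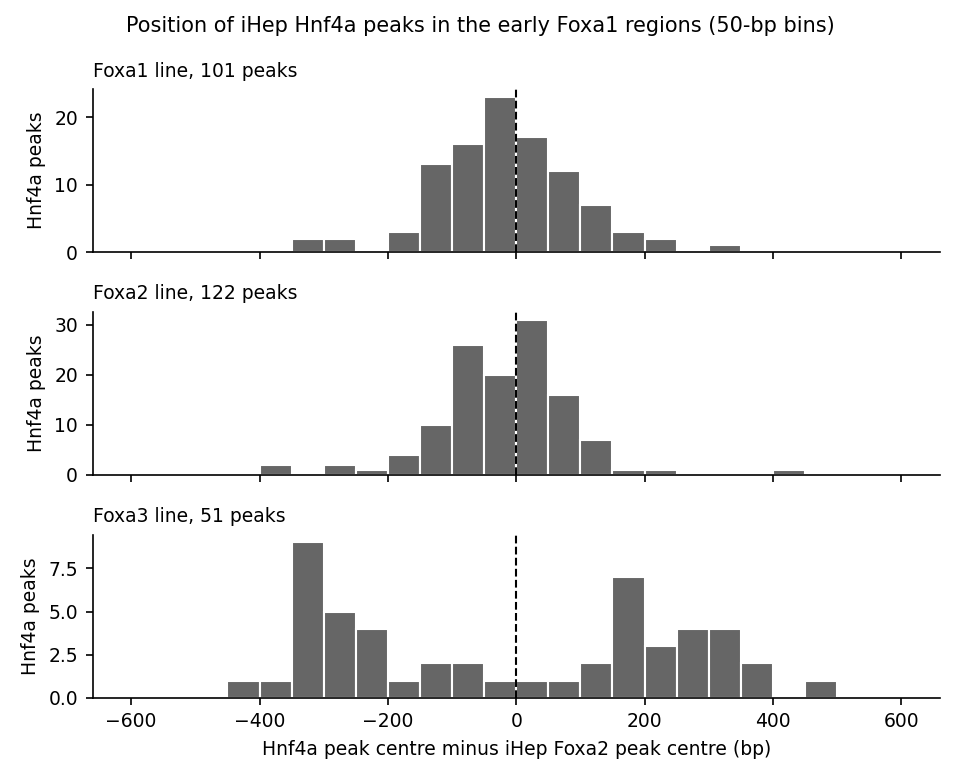
Histograms in 50-bp bins of the distance from the iHep Foxa2 peak centre (dashed line at 0) to the centre of each iHep Hnf4a peak in the early Foxa1 regions, for the Foxa1, Foxa2 and Foxa3 lines (top to bottom, 101, 122 and 51 peaks). The upper panels peak at the centre, while in the lowest 34 of 51 peaks lie more than 200 bp away.

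Hnf4a peaks at the early Foxa1 regions ranked above the middle of their lists, with median percentiles of 68.3, 65.8 and 57.2 for Foxa1-line, Foxa2-line and Foxa3-line peaks. They made up 6.39% of the Foxa1-line list (101 of 1580), 4.91% of the Foxa2-line list (122 of 2485) and 2.04% of the Foxa3-line list (51 of 2506).

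By the summed rank in the 48-hour Foxa1 and iHep Foxa2 lists, the leading region was chr4:44362951-44363603. It ranked 203 of 6781 in 48-hour Foxa1 (score 91.1), 302 of 3435 in iHep Foxa1 (65.9) and 19 of 10330 in iHep Foxa2 (179), and the nearest 48-hour Foxa2 peak was 263 kb away. The next was chr10:120284154-120284853, where ranks were 29, 15 and 256 in the same order of lists. It was followed by chr18:61438643-61439378, chr18:54603911-54604517 and chr8:27640064-27640750. Hnf4a peaks were found at 0 of these 5, beside the 14.0% of all regions with iHep Foxa1, so nothing can be read from so few.

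Among regions without iHep Foxa1 the leader was chr3:68736555-68737242, ranked 853 in 48-hour Foxa1 (score 43.6) and 362 in iHep Foxa2 (87.5). The others were chr1:84786332-84786907, chr12:32066890-32067618, chr5:106015419-106016055 and chr7:96409166-96409738. The chromosome 7 region had a 48-hour Foxa2 peak 1.36 kb away, and for the other 4 the nearest was 87.2 to 535 kb away. Hnf4a was found at 0 of these 5 as well, beside 2.96% of all regions without iHep Foxa1.

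Hnf4a peaks in 4 lists, the most seen, were found at 7 regions, of which 5 held iHep Foxa1, beside 50.5% of all early Foxa1 regions. The like count over all merged regions is not given here, and nothing can be read from so few. The 5 with the best summed rank all held iHep Foxa1 and all had Hnf4a in the 48-hour Foxa1 line and in every iHep line. The first, chr5:42295683-42296322, ranked 6 of 1580 in Foxa1-line and 11 of 2485 in Foxa2-line iHep Hnf4a (scores 43.2 and 70.7), and 136 in iHep Foxa1. The second, chr5:9040567-9041449, had the highest scoring Hnf4a peak of both lists (79.1 and 114.5) and already ranked 12 of 418 in 48-hour Hnf4a of the Foxa1 line, while its iHep Foxa1 peak ranked 2672 of 3435. The third was chr3:98257486-98258254, with Foxa1-line and Foxa2-line Hnf4a ranks of 151 and 51. In the remaining pair, chr3:122507979-122508941 and chr6:129475964-129476830, Foxa1-line Hnf4a ranked 1501 and 1112, and Foxa2-line Hnf4a 363 and 863.

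The early Foxa1 regions were spread over all autosomes and chromosome X. They formed between 4.11% of the merged regions of chromosome 17 and 8.23% of those of chromosome 18, and the share with iHep Foxa1 ran from 41.6% on chromosome 16 to 60.0% on chromosome 9. Most stood alone, with 110 (5.76%) having another early Foxa1 region within 10 kb. Joined across gaps of up to 50 kb they formed 1549 single regions, 137 pairs, 22 runs of 3 and 5 runs of 4. Of regions with iHep Foxa1 that had a neighbour within 50 kb, 108 of 191 (56.5%) had a nearest neighbour with iHep Foxa1, and of those without, 88 of 169 (52.1%). Within 5 kb the counts were 23 of 37 (62.2%) and 13 of 29 (44.8%), which are few.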

How the data were processed

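The authors' deposited peak lists give chromosome, start, end, name and a score for each peak of 1 sample. How the score was made, the calling threshold and the use of inputs are not given in the sources used here. Tools recorded in the submitters' processing notes, with no role given, are MACS2 2.1.0, BWA 0.6.2 and bedtools 2.16.2, and the build is mm9. Positions are mm9, with the first base counted as 1. The 12 Foxa and Hnf4a lists were used. The list of a tagged Foxa3 mutant and the inputs were not used here. Groups follow the sample titles. Scores served only for ranks and thresholds inside each list, and tied scores share a percentile.

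Overlap of at least 1 bp was computed in Python 3.11.15 with NumPy 2.4.6. The merge gave the 29339 regions that bedtools gives, and 3000 of 3000 simulated regions were recovered with their lists. Shares carry 95% Wilson intervals and differences of shares 95% Newcombe intervals. A test over samples could not be made with 1 library per group. Regions named are the 5 with the best summed rank in each subset, the 5 with Hnf4a in the most lists, the widest region and those at the edge of the rule. The members, the comparison sets and the settings were chosen with earlier results of these data known. The analysis of Hnf4a positions, the comparison of iHep Foxa1 by score class, the comparison sets from shortened lists, the Hnf4a differences in 4 score classes and the split by 48-hour Foxa1 score were added after the data were seen. The gene and promoter tables at hand are on GRCm38, so no gene or sequence was assigned to a region.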

Additional observations from a re-analysis of the deposited data

How the results depend on the processing

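No paired analysis was possible because each group holds 1 library. Across the alternatives run, no value changed direction. Leaving aside the removal of dense blocks of 48-hour Hnf4a peaks, 14 settings were run for each line. In all 14 the share of regions with an iHep Hnf4a peak was higher with iHep Foxa1 than without. Cutting the iHep Hnf4a lists to equal length could not change the Foxa1-line shares, as that list is the shortest. A 50% overlap rule, merging across 500 bp, a 1-kb margin for absence and autosomes alone moved none of these values beyond their intervals or 1.5 times. Removing 3 dense blocks of 48-hour Hnf4a peaks could change nothing, as they hold 0 of the regions. The number of early Foxa1 regions depended on list length: it was 940 with the upper 50% of each Foxa list and 790 with each list cut to 3435 peaks. With equal lengths 78.9% held iHep Foxa1, and the median width differed by 33 bp in place of 68.5 bp, or by 43 bp in the upper 50%. The share with Foxa1-line Hnf4a among regions without iHep Foxa1 was 0.599% with equal Foxa lists and 0.355% in the upper 50% of regions by iHep Foxa2 score, where Foxa3-line Hnf4a was at 0%. Among regions with iHep Foxa1, Foxa2-line Hnf4a lay in 13.2% with the upper 50% of Foxa lists, in 7.53% in the lower 50% of regions by iHep Foxa2 score and in 8.30% with Hnf4a lists of equal length. With the upper 50% of each Hnf4a list the shares with iHep Foxa1 were 6.22%, 6.85% and 2.49% for Foxa1-line, Foxa2-line and Foxa3-line Hnf4a, and Foxa2-line Hnf4a without it was 1.59%. These are shorter lists by construction. With Hnf4a centres required within 200 bp of the Foxa2 centre, Foxa3-line Hnf4a lay in 1.24% of regions with iHep Foxa1. Depth is unknown, so a missing peak sets no upper limit on binding.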

Other observations

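Early Foxa1 regions without an iHep Foxa1 peak were rarely close to one. The nearest iHep Foxa1 peak was within 1 kb for 10 of 945 and at a median of 165 kb. Of the lists that the rule requires to be absent, iHep Foxa3 peaks were nearer to regions with iHep Foxa1 than to those without. Median distances were 102 and 145 kb. Within 10 kb lay 109 of 964 (11.3%, 9.46% to 13.5%) against 87 of 945 (9.21%, 7.52% to 11.2%), with overlapping intervals. Within 100 kb the shares were 49.5% (46.3% to 52.6%) and 42.0% (38.9% to 45.2%), with intervals apart. Of the other lists, 48-hour Foxa2 had the reverse order, and 48-hour Foxa3 had the same order with a smaller gap in medians. For both, the shares within 100 kb had overlapping intervals. For 48-hour Foxa2 the median distances were 96.0 kb with iHep Foxa1 and 82.5 kb without. Within 100 kb lay a 48-hour Foxa2 peak for 50.6% (47.5% to 53.8%) and 53.9% (50.7% to 57.0%). A 48-hour Foxa3 peak lay within 100 kb for 34.4% (31.5% to 37.5%) and 34.2% (31.2% to 37.3%), with medians of 185 and 200 kb.

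The 5 runs of 4 early Foxa1 regions, singled out after their values were seen, differed in iHep Foxa1. The runs chr8:130948613-130989706 and chr13:15677644-15763721 had iHep Foxa1 in 0 of 4 regions and no iHep Hnf4a peak. The run chr18:39816070-39894963 had iHep Foxa1 in 3 of 4 and iHep Hnf4a in 1. In chr2:50657934-50739670 and chr9:123446790-123484875 iHep Foxa1 was present in 1 of 4 regions, and the chromosome 2 run held iHep Hnf4a in 1.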
